A study of Mus musculus with 6 samples.

Results

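The genes Sema5b, Cnpy1, En2, Rnf220, Prr5, Samd13, Col14a1 and Deptor neighbored regions of high Oct4 or Spt16 occupancy and had no neighboring Jmjd1c region. They were picked as 8 symbols from the authors' gene tables, among 3403 distinct gene identifiers in all 3 tables, with their reads already known. Every region whose row named any of them was taken, which gave 7 of 265 Oct4 regions, 8 of 1253 Spt16 regions and 0 of 24 Jmjd1c regions. The study used tet-ON Oct4 embryonic stem cells of the C57BL/6 mouse strain, in which doxycycline switches on an Oct4 transgene, and sequenced immunoprecipitated chromatin (ChIP-seq). All cells had been differentiated with retinoic acid and given PBS or doxycycline. Oct4, Spt16 and Jmjd1c ChIP and input chromatin were each 1 library titled 10 h. Libraries titled 0 h were not analysed here. The labels name no treatment per library, and the Oct4 table header states that 10 regions found in uninduced cells had been taken out. The labels used here give no number of clones or cultures, and ChIP reads hold no expression by which to check the cell type.

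Oct4, encoded by Pou5f1, is a POU-domain transcription factor that keeps stem cells pluripotent, and it binds DNA at enhancers far from gene starts as well as at promoters. Spt16 is a subunit of FACT, a histone chaperone that loosens and rebuilds nucleosomes. Jmjd1c belongs to a Jumonji family that includes histone demethylases. Several of the 8 genes have known roles in the nervous system or in growth signaling. Sema5b encodes a transmembrane semaphorin that guides axons, En2 an engrailed homeodomain factor of the midbrain and hindbrain, and Cnpy1 a canopy protein linked in zebrafish to fibroblast growth factor signaling at the boundary between those brain parts. Prr5 encodes a subunit of an mTOR kinase complex, and Deptor an inhibitor that binds mTOR. Rnf220 encodes a RING ubiquitin ligase, Col14a1 a collagen that associates with fibrils, and Samd13 a protein with a sterile alpha motif domain.

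Where did the regions lie? At the 8 genes, 6 of the 7 Oct4 regions shared 1 bp or more with a Spt16 region, and none did so with a Jmjd1c region. Over the whole Oct4 list, 63.4% of regions overlapped a Spt16 region and 4.91% a Jmjd1c region. Over the whole Spt16 list, 13.4% overlapped an Oct4 region and 1.12% a Jmjd1c region. The genes were picked for this pattern, so nothing is read from these counts. The 6 overlapping regions stood for 6 loci on 5 chromosomes, since Cnpy1 shared a region with En2, and Col14a1 shared its regions with Deptor. Coordinates are given on mm9, the build of the files, and distances run from the middle of a region to the gene start in the authors' tables.

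Of the 7 Oct4 regions, 3 lay inside a gene, and all 3 were far from its start. The Sema5b region (ENSMUSG00000052133, chr16:35588064-35588416) was 47010 bp downstream of the start, at 38.0% of the length of a gene of 123.6 kb. The Rnf220 region (ENSMUSG00000028677, chr4:117085859-117086165) was 83644 bp downstream of the start, at 37.1% of a gene of 225.6 kb. The Cnpy1 region (ENSMUSG00000044681, chr5:28536394-28536678) was 35795 bp from the start, at 79.6% of a gene of 44.97 kb. The same region lay 36.4 kb beyond the end of En2 (ENSMUSG00000039095) and 44301 bp from its start. Over the whole lists, 42.3% of Oct4 regions and 47.8% of Spt16 regions lay inside a listed gene, so 3 of 7 Oct4 regions and 4 of 8 Spt16 regions were close to the background. Exons and introns of this build were not used here.

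The other loci were intergenic. The Samd13 region (ENSMUSG00000048652, chr3:146356458-146356813) was upstream of the gene and closest to a member's start, at 8080 bp. Its row also named Prkacb, a catalytic subunit of protein kinase A, whose end was 35.9 kb away, and the genes 4930503B20Rik and Gm16325. The Prr5 region (ENSMUSG00000036106, chr15:84452463-84452768) was 47434 bp upstream of the start, and no other gene was listed beside it. The stronger Col14a1 region (ENSMUSG00000022371, chr15:55099612-55099959) was 39519 bp upstream of that gene and 8.96 kb beyond the end of Deptor (ENSMUSG00000022419), whose start was 155914 bp away. A U7 small nuclear RNA gene lay nearer, 5628 bp from the region, and was the closest gene in the table. The first gene listed was likewise not the member at Rnf220 (Gm12828, 32542 bp away) and at Sema5b (Gm5963, 14599 bp away).

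**Figure D1:**
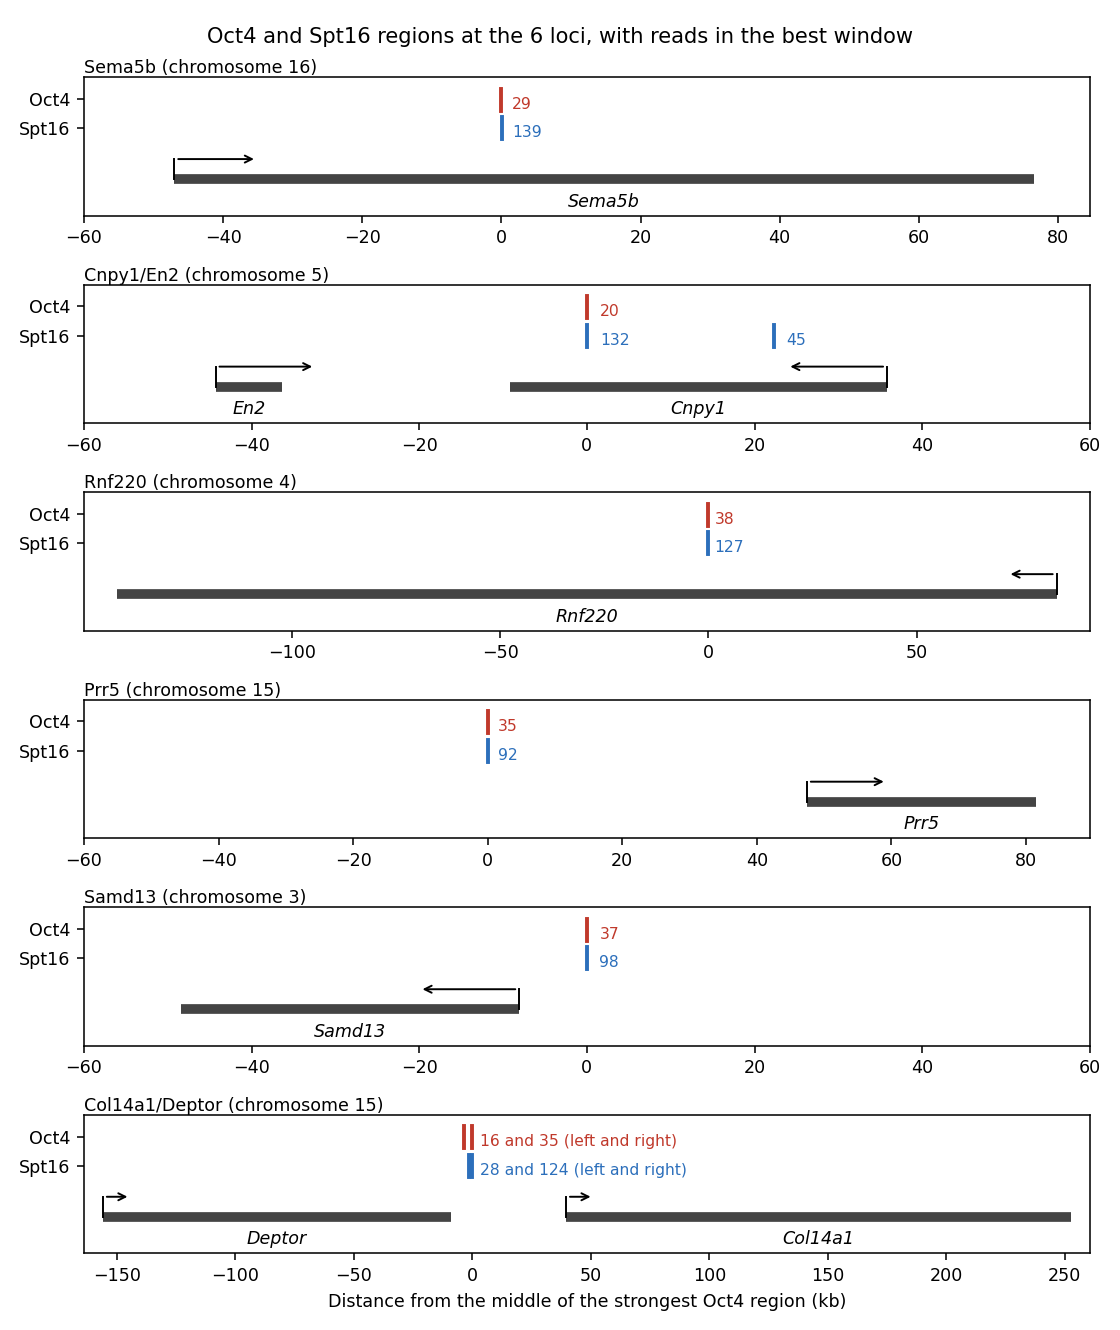
Position of the Oct4 regions (red) and Spt16 regions (blue) at the 6 loci, in kb from the middle of the strongest Oct4 region; bars are the 8 genes, arrows their starts and direction, and numbers the ChIP reads in the best window. The closest start is that of Samd13 at 8080 bp, and the 4 regions near Col14a1 and Deptor lie in the gap between those genes.

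How strong was each protein at these loci? Values are reads in the best window of a region, a stretch of 185 to 201 bp chosen by the authors' caller at the regions near these genes, and RPM, which are reads scaled to a library of 1000000. One library stands behind each value, so no test across cultures was possible, and every interval is a 95% exact interval for counting error only. The libraries held 15543450 Oct4 reads, 36669596 Spt16 reads, 26736842 Jmjd1c reads and 14592994 input reads. These reads had helped to choose the genes and are given as a description.

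Oct4 reads ran from 29 to 38 at 5 of the 6 loci and were lowest at Cnpy1 and En2. The Rnf220 region held 38 Oct4 reads, or 2.44 RPM (1.73 to 3.36), against 1 input read. At Samd13, 37 Oct4 reads, or 2.38 RPM (1.68 to 3.28), stood against 1 input read. Col14a1 and Prr5 had 35 Oct4 reads each, or 2.25 RPM (1.57 to 3.13), against 0 input reads. The intervals of these 4 loci overlap almost wholly. The Sema5b region held 29 Oct4 reads, or 1.87 RPM (1.25 to 2.68), against 0 input reads. The region shared by Cnpy1 and En2 had 20 Oct4 reads, or 1.29 RPM (0.786 to 1.99), against 0 input reads. In this order no neighboring loci differed beyond counting error. Of the 15 pairs of loci, 2 had a ratio of Oct4 reads whose interval left out 1, Rnf220 over Cnpy1 and En2 (1.90, 1.08 to 3.45) and Samd13 over Cnpy1 and En2 (1.85, 1.05 to 3.36). These intervals were not widened for the 15 pairs, and the reads had helped to choose the loci, so the pairs are a description only.

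The loci were picked with these reads known, so their places in the Oct4 list only describe the choice. On that description 5 of the 6 loci were strong in Oct4, and Cnpy1 and En2 stood lower. By the authors' score, the Col14a1 and Prr5 regions shared place 5 of 265, followed by Rnf220 at place 8, Samd13 at 9 and Sema5b at 15. The Cnpy1 and En2 region was at place 60. Its 20 reads equaled the median of all 168 Oct4 regions that overlapped a Spt16 region, and the median of the whole Oct4 list was 18. Enrichment over a floor of 3 input reads (0.206 RPM) was at least 10.95-fold at Col14a1 and Prr5, at least 9.08-fold at Sema5b and at least 6.26-fold at Cnpy1 and En2. All such bounds take the ChIP reads as observed, without their counting error. With 1 input read, the ratios at Rnf220 and Samd13 were 35.7 (6.03 to 1446) and 34.7 (5.86 to 1409), too wide to rank. Input was absent at 5 of the 7 Oct4 regions, where 72.1% of the whole Oct4 list had no input read.

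Spt16 was high at all 6 loci and ordered them differently from Oct4. The Sema5b region (Spt16 coordinates chr16:35588036-35588503) held 139 Spt16 reads, or 3.79 RPM (3.19 to 4.48), against 0 input reads. The Cnpy1 and En2 region had 132 Spt16 reads, or 3.60 RPM (3.01 to 4.27), against 1 input read. At Rnf220 there were 127 Spt16 reads, or 3.46 RPM (2.89 to 4.12), against 1 input read. The 3 loci inside a gene were thus the 3 with the most Spt16 reads, but the Col14a1 region was close behind with 124 Spt16 reads, or 3.38 RPM (2.81 to 4.03), against 0 input reads. Samd13 had 98 Spt16 reads, or 2.67 RPM (2.17 to 3.26), against 1 input read. Prr5 had 92 Spt16 reads, or 2.51 RPM (2.02 to 3.08), against 0 input reads. The intergenic loci Samd13 and Prr5 were the lowest, and 6 of the 15 pairs of loci had a ratio whose interval left out 1, each of them with Samd13 or Prr5 as the lower locus. The highest of these ratios was Sema5b over Prr5, at 1.51 (1.15 to 1.99). No neighbors in the order of Spt16 levels differed beyond counting error. As for Oct4, intervals were not widened for the 15 pairs, and the reads had helped to choose the loci, so the pairs are a description only.

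In the Spt16 list the loci took places 6, 7, 9, 10, 19 and 25 of 1253 by the authors' score, in the order Sema5b, Col14a1, Cnpy1 and En2, Rnf220, Prr5 and Samd13. Enrichment over the floor of 3 input reads was at least 18.4-fold at Sema5b, at least 16.4-fold at Col14a1 and at least 12.2-fold at Prr5. Against the 1 input read at each of the other loci, it was 52.5 (9.27 to 2090) at Cnpy1 and En2, 50.5 (8.91 to 2012) at Rnf220 and 39.0 (6.84 to 1556) at Samd13. Input was absent at 5 of the 8 Spt16 regions near these genes, where 68.0% of the whole list had no input read. Summed over the 6 loci, 194 Oct4 reads stood against 2 input reads, and 712 Spt16 reads against 3 input reads. The windows were called for high ChIP reads over input at loci picked for them, so these sums are a description and no fold is read from them.

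**Figure D2:**
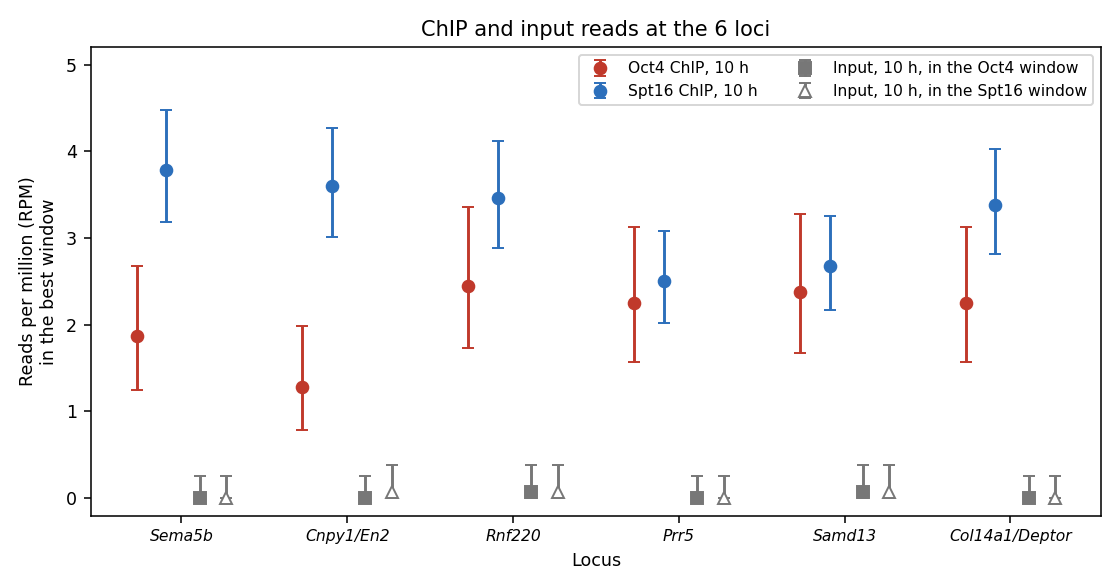
Oct4 (red) and Spt16 (blue) ChIP RPM and input RPM (gray) at the best window of each of the 6 loci; points are single libraries and bars 95% exact counting intervals. Input lies at 0 or 1 read (0.0685 RPM) at every locus, Oct4 is lowest at Cnpy1 and En2 (1.29 RPM), and Spt16 is lowest at Prr5 (2.51 RPM) and Samd13 (2.67 RPM).

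How did Oct4 compare with Spt16 at each locus? The proteins were pulled down separately, each into its own library, so a ratio of 1 means equal RPM and not equal occupancy. Both reads had helped to choose the loci, so the ratios and the counts of intervals here are a description only. Oct4 RPM was below Spt16 RPM at all 6 loci, as at 112 of all 168 overlapping regions. At 3 of the 6 loci it was lower by more than counting error. Over all 168 overlapping regions, 12.5% had Oct4 lower than Spt16 beyond the interval and 1.19% had Oct4 higher. The lowest ratio of Oct4 RPM to Spt16 RPM was at Cnpy1 and En2, at 0.36 (0.21 to 0.57). That was also the lowest of all 168 overlapping regions, whose median was 0.88 and whose range was 0.36 to 1.93. Low ratios were not particular to these loci. Of the 7 overlapping regions with the lowest ratios, 4 were in all 3 lists and 2 were at these loci. The median ratio was 0.57 over the 11 regions in all 3 lists and 0.69 over the 6 loci. Among the 10 regions with the highest Spt16 scores, Oct4 reads ran from 20 to 84 with a median of 35, and only Cnpy1 and En2 had 20. Sema5b followed with a ratio of 0.49 (0.32 to 0.74), the place 7 from the lowest. Col14a1 had 0.67 (0.44 to 0.98), with an upper bound just under 1. In alternatives chosen after seeing the data, its interval held 1, and 2 of the 6 loci, Cnpy1 and En2 and Sema5b, stayed below 1 when intervals were widened for 6 loci or ratios were divided by the median of all overlapping regions. The intervals at Rnf220 (0.71, 0.48 to 1.02), Samd13 (0.89, 0.59 to 1.31) and Prr5 (0.90, 0.59 to 1.34) held 1.

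The 3 loci inside genes had ratios of 0.36, 0.49 and 0.71, and the 3 intergenic loci had 0.67, 0.89 and 0.90. The groups overlapped only in that Rnf220 had a higher ratio than Col14a1. A link between position and ratio was not tested. Both lists had a lower limit, 15 Oct4 reads and 26 Spt16 reads at the overlapping regions, so a ratio near the lowest could be seen only where Spt16 was high. Cnpy1 and En2 moved from the lowest to the second lowest ratio when RPM were divided by the width of each region (0.62), and Sema5b came after it at 0.65. Per width, the ratios at Rnf220 (1.04), Samd13 (1.17) and Prr5 (1.38) were above 1.

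**Figure D3:**
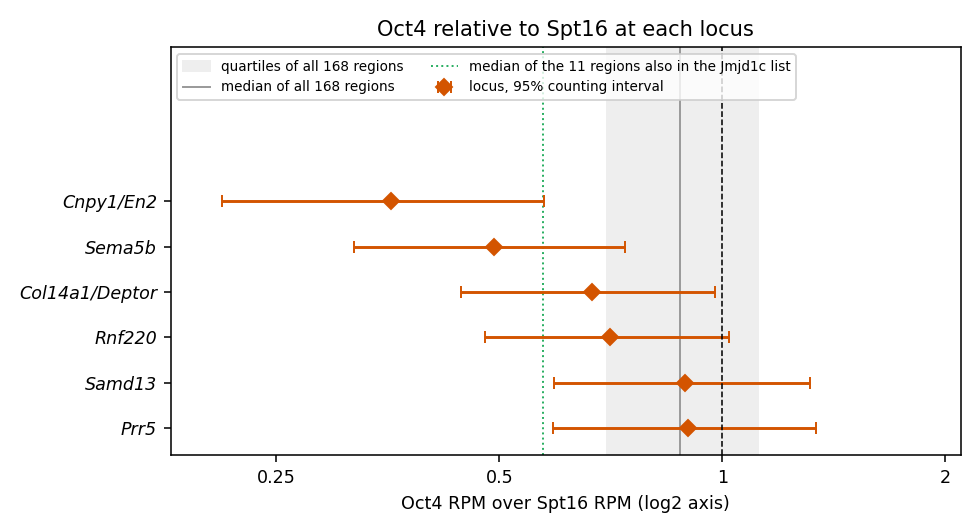
Ratio of Oct4 RPM to Spt16 RPM at the 6 loci on a log2 axis, with 95% exact counting intervals; the gray band and line are the quartiles and median of all 168 overlapping regions, and the dotted line is the median of the 11 regions in all 3 lists. Cnpy1 and En2 (0.36), Sema5b (0.49) and Col14a1 (0.67) have intervals wholly below 1, and that of Col14a1 holds 1 once widened for 6 loci. A ratio of 1 is equal RPM of separate libraries and not equal occupancy. The reads of both proteins had helped to choose the loci.

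Did the Oct4 and Spt16 regions cover the same stretch of DNA? The libraries were separate, so overlap does not show both proteins on the same molecule. At each of the 6 loci the Oct4 region lay wholly within the Spt16 region, which was so at 73.8% of all 168 overlapping regions and at all 11 regions in the 3 lists. Oct4 regions at the loci were 284 to 355 bp wide, and the Spt16 regions around them were 451 to 494 bp wide. Over all overlapping regions the medians were 251 bp for Oct4 and 383 bp for Spt16. Median reads at the loci were 35 for Oct4 and 125.5 for Spt16, against 20 and 55 over all overlapping regions, and the part of read number in these widths was not tested. The middles of the Oct4 and Spt16 regions were 14 bp apart at Samd13, 15 bp at Prr5, 21.5 bp at Rnf220, 26.5 bp at Col14a1, 29.5 bp at Sema5b and 55 bp at Cnpy1 and En2. The median over all overlapping regions was 26.5 bp, and 3 of the 6 loci were below it.

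The middles of the best windows lay closer than those of the regions at 5 loci. They were 1 bp apart at Rnf220, 4 bp at Samd13, 6 bp at Col14a1, 12 bp at Prr5 and 23 bp at Sema5b. At Cnpy1 and En2 they were 80 bp apart, against a median of 25 bp and a range of 0 to 277 bp over all overlapping regions. That locus also had the fewest Oct4 reads, 20. The plus-strand share ran from 42.9% to 55.2% over the 7 Oct4 regions and from 42.9% to 57.8% over the 8 Spt16 regions, and no region's interval left out 50%.

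**Figure D4:**
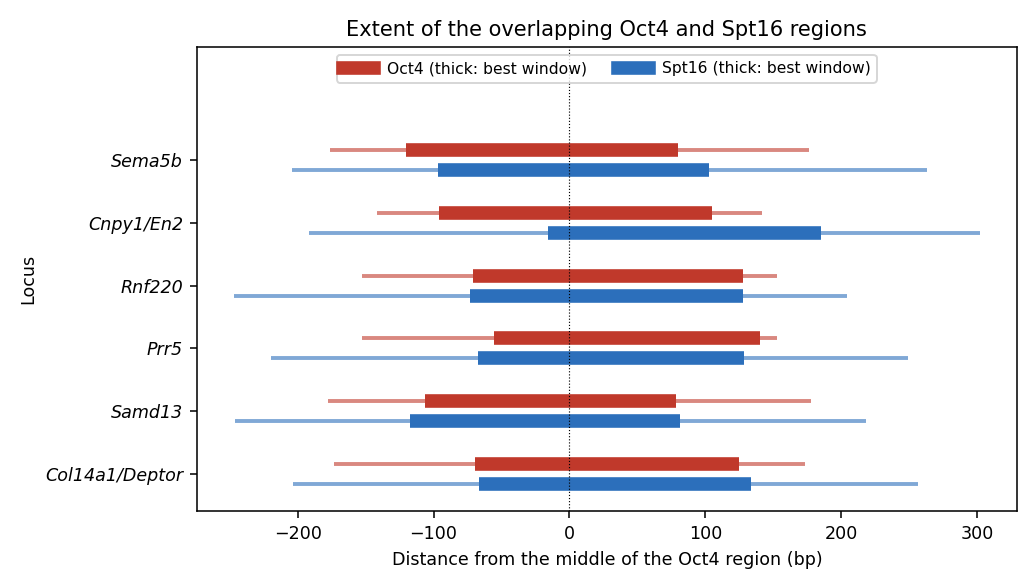
Extent of the Oct4 (red) and Spt16 (blue) regions at the 6 loci in bp from the middle of the Oct4 region, with thin lines for whole regions and thick lines for best windows. Each Oct4 region lies within its Spt16 region, and the best windows are farthest apart at Cnpy1 and En2 (80 bp).

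The remaining 3 regions near the 8 genes held fewer reads than those at the 6 loci and were each in 1 list. Cnpy1 had a further Spt16 region inside the gene (chr5:28558626-28558997), 13520 bp from its start and 22.2 kb from the stronger one. It held 45 Spt16 reads, or 1.23 RPM, against 0 input reads, at least 5.97-fold over the floor, at place 233 of 1253, above the median of 37 reads for that list. No Oct4 region overlapped it, and the fewest reads of any Oct4 region were 15, or 0.965 RPM, so a lower Oct4 level there would not have been listed. Rank numbers ran to 286 in the Oct4 list, with 21 absent, and to 1302 in the Spt16 list, with 49 absent. The regions behind the absent numbers were not analysed here. Near Col14a1 and Deptor, the middles of 4 regions lay within 3.42 kb. The further Oct4 region (chr15:55096260-55096516) had 16 Oct4 reads against 0 input reads, at least 5.01-fold, and was 2231 bp from the U7 gene and 3.10 kb from the edge of the stronger Oct4 region. The further Spt16 region (chr15:55098194-55098401) had 28 Spt16 reads against 0 input reads, at least 3.71-fold, and lay between those 2 Oct4 regions without touching either, 1.68 kb from the one with fewer reads. Another region of the same list within 10000 bp was found for 3.77% of all Oct4 regions and 12.1% of all Spt16 regions, and for 2 of the 7 Oct4 regions and 2 of the 8 Spt16 regions here, all at Col14a1 and Deptor. Both of these regions were nearer to the U7 gene than the strong pair, whose middles lay 5628 bp (Oct4) and 5655 bp (Spt16) from it.

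What was the reach of the Jmjd1c list? The Jmjd1c list named none of the 8 genes, and the nearest Jmjd1c region was 1.36 Mb away at Col14a1, 8.90 Mb at Prr5, 18.3 Mb at Cnpy1 and En2, 24.5 Mb at Samd13, 28.5 Mb at Rnf220 and 45.9 Mb at Sema5b. The list was short. Its rank numbers ran to 52, and 28 of them were absent from the deposited table, so the regions behind those numbers were not analysed here. The fewest reads of any listed Jmjd1c region were 23, or 0.860 RPM. Jmjd1c reads at the 6 loci were not analysed here.

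The loci were as strong in Oct4 and Spt16 as many regions that were also in the Jmjd1c list. Oct4 reads ran from 20 to 38 at the 6 loci and from 16 to 84 at the 11 regions in all 3 lists, with medians of 35 and 28. Spt16 reads ran from 92 to 139 at the 6 loci and from 81 to 217 at the 11 regions, with medians of 125.5 and 111. The ranges of the 6 loci lay inside those of the 11 regions for both proteins. Of the 26 overlapping regions with at least 92 Spt16 reads, 6 were these loci, 8 were in all 3 lists and 12 were others. Of the 10 highest Spt16 regions, 4 were these loci and 5 overlapped a Jmjd1c region, and the counts were the same among the 10 highest Oct4 regions. All of these counts describe how the genes were picked and carry no test.

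At the 11 regions in all 3 lists, Jmjd1c RPM was 0.32 to 0.96 of Oct4 RPM, with a median of 0.68. Multiplied by that median, the Oct4 reads of the 6 loci would correspond to 23.4 Jmjd1c reads at Cnpy1 and En2, within counting error of the 23 reads of the weakest listed region, and to as many as 44.5 at Rnf220. Multiplied by the lowest ratio they would correspond to at most 20.8 reads. Relative to Spt16, Jmjd1c RPM was 0.19 to 0.61 at the 11 regions, with a median of 0.39. The same step from Spt16 gives 26.0 reads at Prr5 to 39.2 at Sema5b with the median, and at most 19.6 with the lowest ratio. The 11 regions were called for Jmjd1c and the 6 loci picked for their Oct4 and Spt16 reads, so these values describe the scale of the list limit and do not show whether Jmjd1c was there.

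**Figure D5:**
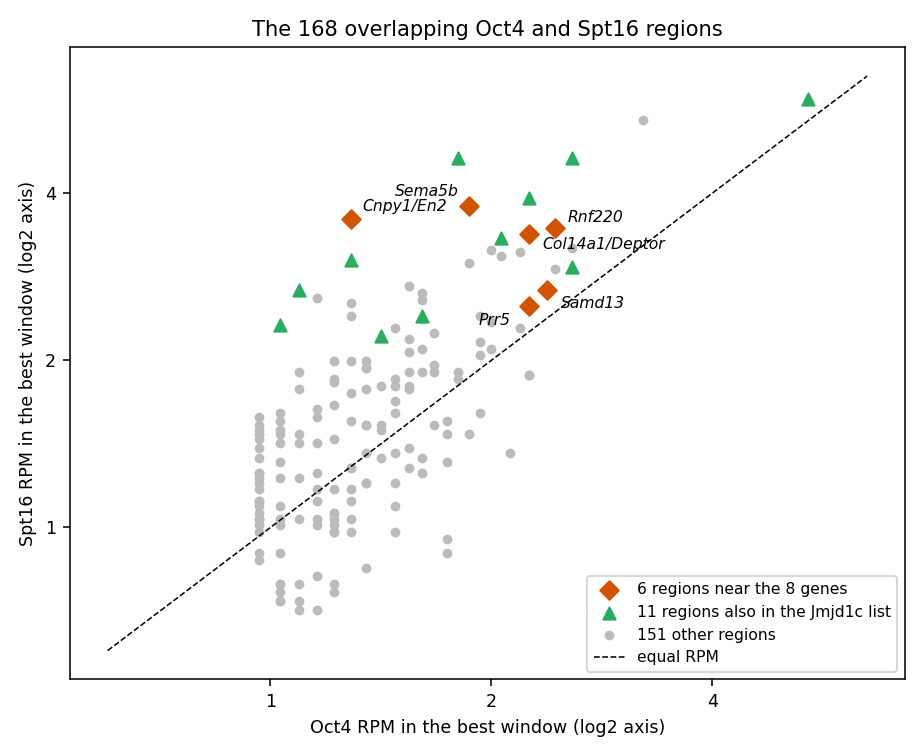
Spt16 RPM against Oct4 RPM at the 168 overlapping regions on log2 axes, with the 6 loci as diamonds, the 11 regions also in the Jmjd1c list as triangles and the other 151 as circles. The 6 loci fall among the triangles, at 1.29 to 2.44 Oct4 RPM and 2.51 to 3.79 Spt16 RPM.

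Which other regions were most like these? Among the 151 overlapping regions that were neither at these loci nor in the Jmjd1c list, likeness was the distance in log2 RPM over the 2 libraries from the median of the 6 loci. The nearest (0.13) lay 23168 bp from Traf3, an adaptor of tumor necrosis factor receptors, with 34 Oct4 reads and 115 Spt16 reads. Its row also named 4930595D18Rik and Rcor1. The next (0.20) lay 40410 bp from Sall1, a zinc finger factor, with 32 Oct4 reads and 113 Spt16 reads. A region 23749 bp from Jarid2, a Polycomb partner, followed (0.21), with 31 Oct4 reads and 116 Spt16 reads. A region 357 bp from Vamp1, a synaptic vesicle protein, was next (0.22), with 40 Oct4 reads and 117 Spt16 reads; its row named 8 more genes, Gapdh among them. The last (0.26), with 38 Oct4 reads and 107 Spt16 reads, had no gene listed. Input was 2 or 3 reads in each Oct4 window and 1 to 5 in each Spt16 window there, against 0 or 1 at the 6 loci, and the difference was not tested.

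Were relatives of the 8 genes marked too? The relatives were listed by family or role, with earlier results of these data known. Of 71 related genes, 1 had an Oct4 region within 50000 bp of its start (1.41%), 7 had a Spt16 region (9.86%, 95% Clopper-Pearson interval 4.06 to 19.3) and 1 had a Jmjd1c region (1.41%). Over 21896 protein-coding genes the shares were 1.42% for Oct4, 7.15% for Spt16 and 0.132% for Jmjd1c, and each share of the relatives had an interval that held it (0.0357 to 7.60 for both Oct4 and Jmjd1c). Midbrain and hindbrain regulators held 4 of the 7 Spt16 genes, out of 10 (40%), against 7.15% of all protein-coding genes. This family was 1 of several listed with earlier results known, so its share was not tested and nothing is read from it. En1, the paralog of En2, had a Spt16 region 41685 bp from its start with 39 reads against 2 input reads, a 7.76-fold excess (2.01 to 66.3). Fgf17, a growth factor of the same boundary, had one at 18935 bp with 40 reads against 0 input reads. Otx2, a forebrain and midbrain homeobox factor, had one at 33517 bp with 27 reads against 0 input reads. Lmx1b, a LIM homeobox factor, had 2 Spt16 regions, 24068 bp from its start with 32 reads and, beyond the distance limit, 59678 bp from it with 35 reads, both against 0 input reads. All held fewer reads than the region shared by Cnpy1 and En2 (132 Spt16 reads), which was picked with its reads known. None of these 10 genes had an Oct4 region.

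Among 28 semaphorins and plexins, only Sema3b had a region. Its Oct4 region was 229 bp from the start with 15 reads, and its Spt16 region was 21518 bp away with 39 reads, both against 0 input reads. None of the 9 other mTOR complex genes and partners, such as Mtor, Rictor and Rptor, had a region within that distance in any list, for which the exact interval reaches 33.6%. None of the 8 other collagens of the Col14a1 class had one in any list either. Cnpy3, of the canopy family, had a Spt16 region with 26 reads against 0 input reads, 21247 bp from its start. Among 13 genes with a sterile alpha motif domain, Samd7 had a Spt16 region with 56 reads against 1 input read, a 22.3-fold excess (3.84 to 896). Samd12 in that family had a Jmjd1c region 5848 bp from its start with 25 reads against 0 input reads, at least 4.55-fold. It was on chromosome 15 (chr15:53739814-53740064) and was the Jmjd1c region nearest to Col14a1 and Deptor.

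No region of any list lay at the start of one of the 8 genes. The RefSeq windows of 250 bases before to 50 after gene starts (GRCm38.p6) held 6 windows for Cnpy1, Prr5, Rnf220 and Sema5b. None of the 6 held the octamer ATGCAAAT, which is the core of the Oct4 motif, on either strand, where 1.74% of all 32851 windows did. None held CATTGT, a Sox factor motif, on either strand, where 12.6% of all windows did. With only 6 windows, from 4 of the 8 genes and none at a region, nothing is read from these absences. The sequence under the regions themselves was not used here.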

How the data were processed

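ChIP-seq libraries for Oct4, Spt16 and Jmjd1c and an input library, all at 10 h, were used, 1 library per group as the titles state. The submitters' processing notes name CASAVA 1.4, Bowtie and the mm9 build. The Bowtie release and the software behind the regions are not given in the sources used here. Per the file headers, each ChIP library was compared with the 10 h input, with thresholds of 13 for the Q score and 1 for the log2 ratio. The deposited tables give whole-number read counts per strand for the best window, which were summed over strands. The deposited log2 ratio adds 1 read to each side. The deposited score, a scaled negative logarithm, was used for places only. Gene names, positions and distances are the authors'.

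Reads were scaled to the library totals in the headers. Where no input read was present, 3 input reads (0.206 RPM) served as the divisor and the fold is a lower bound for the observed ChIP reads. It leaves out their counting error and is not a 95% bound. The upper end of the 95% interval for 0 input reads was 0.253 RPM, above that floor. Where input reads were present, ratios have exact binomial intervals, which also served for Oct4 over Spt16. Reads carry no molecular identifiers and may be PCR copies. Counting error is all that intervals cover, and floors leave out that of the ChIP reads. Regions of 2 lists overlapped where they shared 1 bp or more. No test with a p-value was run. Gene identifiers were matched to a RefSeq table (GRCm38.p6, names only), for 433 of 633 in the Oct4 table, 2070 of 3203 for Spt16 and 41 of 65 for Jmjd1c. The genes, related gene lists and rules were chosen with earlier results of these data known. Named genes were the 8 members, all genes named in rows of their regions, related genes with a region, and the 5 regions most like the members. Alternatives covered overlap, gene distance, score, the input floor and region width. Code was tested on simulated data. Scripts ran in Python 3.11.15 with pandas 2.3.3, scipy 1.17.1, numpy 2.4.6 and, for plots, matplotlib 3.10.9.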

Additional observations from a re-analysis of the deposited data

How the results depend on the processing

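Counts of overlapping regions did not change with the overlap rule: 6 of the 7 Oct4 regions met a Spt16 region and 0 a Jmjd1c region with each rule tried. Only regions inside one of the 8 genes gave 3 Oct4 regions in place of 7 and 4 Spt16 regions in place of 8. A limit of 50000 bp to the gene start left 6 Oct4 and 7 Spt16 regions, without Rnf220, and the median score of each list left the same numbers, without the weaker region near Col14a1. The median lower bound over regions with 0 input reads was 9.08-fold for Oct4 and 12.2-fold for Spt16 with a floor of 3 input reads. It was 27.2-fold and 36.6-fold with a floor of 1 input read, and 28.2-fold and 37.6-fold by the authors' ratio, as both use a smaller divisor. The median ratio of Oct4 to Spt16 over the 6 loci was 0.69, and 0.96 per width of region, because Oct4 regions are narrower. In alternatives chosen after seeing the data, 2 of the 3 loci kept an interval under 1 when intervals were widened for 6 loci, and 2 when ratios were divided by the median of all overlapping regions. Col14a1 was the locus lost in both. The reads of both proteins had helped to choose the loci, so these counts are a description only. No paired analysis was possible because each group had 1 library, and for the same reason no library could be left out. With 1 library per protein, variation between cultures was not measured.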
